A study of Mus musculus with 9 samples.

Results

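The 8 genes described here, Vps37b, Pitpnm2, Mphosph9, Rilpl1, Tmed2, Ddx55, Dnah10 and Scarb1, are neighbours on mouse chromosome 5 and were followed in matured oocytes. They were 8 of the 22526 genes in the deposited table. They were chosen by their measured values: aged and young oocytes differed at them, and oocytes of the nicotinamide mononucleotide (NMN) group lay near the aged ones. All differences of these 8 genes between the groups are therefore given as a description. Where they are counted among the genes that passed a test, the count is no evidence about them. Each had at least 1 FPKM (a count of fragments relative to how long the transcript is and how deeply the library was sequenced) in at least 3 libraries, the minimum for entering the fit across genes.

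The mice were of the outbred ICR strain, and their oocytes had reached metaphase II, where meiosis pauses until fertilisation. There were 3 libraries from the NMN group, 3 from the aged group and 3 from the young group. NMN is a precursor of the coenzyme NAD, and the series asks what supplementing it does to oocytes of older females. The labels give the age of no group, no dose or duration of NMN, and neither the number of oocytes nor the mice behind a library, so the spread between libraries may be technical. Fewer oocytes and less RNA per oocyte cannot be told apart in such libraries.

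Depth, estimated from the low values, was 16.3 M to 19.2 M fragments per library (M, mega). The 10 markers of oocytes (such as Gdf9 and Zp3) were above 0 in all libraries and summed to 7603 to 9381 FPKM in NMN, 8898 to 10290 in aged and 6746 to 8165 in young libraries. Of 10 listed markers of cumulus and granulosa cells, the cells that surround the oocyte, the deposited table held 9. These markers summed to 14.6 FPKM in aged replicate 2, with all 9 above 0. In the other 8 libraries they summed to 0.0253 to 0.719 FPKM, with 6 to 8 of the 9 at 0. Of 5 listed blood and immune markers the deposited table held 2, which summed to at most 0.174 FPKM. Aged replicate 2 is set apart in the results below, and the part of the surrounding cells in them was not tested.

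The 8 genes differ in what they do. TMED2 is a p24 protein, a receptor that helps load cargo into the vesicles that travel between endoplasmic reticulum and Golgi, and mouse embryos without it die before birth. VPS37B is a subunit of ESCRT-I, which sorts ubiquitinated membrane proteins into endosomal vesicles, and SCARB1 is the receptor for high-density lipoprotein, through which cells take up cholesterol. Female mice without Scarb1 are infertile. DDX55 is an RNA helicase of large ribosomal subunit assembly, MPHOSPH9 is a protein of the centriole's distal end in human cells, and DNAH10 is a heavy chain of axonemal dynein, the motor of motile cilia. PITPNM2 belongs to the phosphatidylinositol transfer proteins, and RILPL1 binds Rab GTPases that are phosphorylated by the kinase LRRK2.

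In chromosomal order the stretch runs from Vps37b to Scarb1, and it held 28 genes of the deposited table, the 8 listed and 20 unlisted. Tmed2, Ddx55 and Dnah10 lie on the plus strand, and the other listed genes lie on the minus strand. Pitpnm2 and Mphosph9 are direct neighbours, as are Rilpl1, Tmed2 and Ddx55. Within each of these clusters the young level was the higher one for 1 gene, Pitpnm2 or Rilpl1, and the lower one for the rest. The promoters of these neighbours are shown because adjacent starts differ in direction. RefSeq promoters were matched for 5 of the 8 genes, on build GRCm38.p6. They run from 250 bases before to 50 bases after the start, and capitals mark the motifs searched. Pitpnm2 (chr5:124249711-124250010, minus strand) and Rilpl1 (chr5:124531342-124531641, minus strand) are the 2 with the lower level in aged oocytes, and Mphosph9 (chr5:124327923-124328222, minus strand) and Ddx55 (chr5:124552614-124552913, plus strand) are the 2 with the higher level.
Pitpnm2: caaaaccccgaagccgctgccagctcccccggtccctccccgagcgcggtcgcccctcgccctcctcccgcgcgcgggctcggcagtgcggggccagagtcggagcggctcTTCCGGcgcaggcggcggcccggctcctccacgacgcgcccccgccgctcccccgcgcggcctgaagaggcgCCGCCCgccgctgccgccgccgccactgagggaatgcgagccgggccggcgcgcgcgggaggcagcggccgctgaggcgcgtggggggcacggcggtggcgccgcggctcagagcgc
Rilpl1: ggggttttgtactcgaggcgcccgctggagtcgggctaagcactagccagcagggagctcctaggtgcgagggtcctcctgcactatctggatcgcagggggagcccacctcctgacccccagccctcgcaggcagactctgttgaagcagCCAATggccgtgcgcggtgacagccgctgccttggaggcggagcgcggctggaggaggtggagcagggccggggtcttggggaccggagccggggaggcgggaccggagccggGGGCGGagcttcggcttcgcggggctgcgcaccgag
Mphosph9: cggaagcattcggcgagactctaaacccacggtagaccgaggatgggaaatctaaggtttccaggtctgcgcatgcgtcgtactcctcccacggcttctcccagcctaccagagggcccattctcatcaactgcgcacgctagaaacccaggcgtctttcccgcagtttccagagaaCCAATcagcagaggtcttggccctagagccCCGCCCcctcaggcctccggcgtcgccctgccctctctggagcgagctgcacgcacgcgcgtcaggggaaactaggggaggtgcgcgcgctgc
Ddx55: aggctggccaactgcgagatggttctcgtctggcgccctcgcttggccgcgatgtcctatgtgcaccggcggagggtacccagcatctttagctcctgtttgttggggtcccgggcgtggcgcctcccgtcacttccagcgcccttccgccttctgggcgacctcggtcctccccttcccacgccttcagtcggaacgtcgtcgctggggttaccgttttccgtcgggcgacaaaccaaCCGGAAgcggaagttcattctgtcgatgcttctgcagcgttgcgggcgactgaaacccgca
Searched on both strands were the TATA box TATAAA, the NF-Y motif CCAAT, the GC box GGGCGG, the E-box CACGTG, the CRE motif TGACGTCA, the ETS motif TTCCGG and, by name alone, the NRF1 motif. No matches overlapped. GGGCGG was found once each in the printed Pitpnm2, Rilpl1 and Mphosph9 promoters and in 35.7% of the 32851 promoters of the table. CCAAT was found in the Rilpl1 and Mphosph9 promoters and in 37.4% of all promoters, and TTCCGG in the Pitpnm2 and Ddx55 promoters and in 14.9%. RefSeq lists another Pitpnm2 promoter, not printed, at chr5:124187133-124187432 on the minus strand, with GGGCGG 2 times, CCAAT once and 64.0% G and C. The share of promoters with a match was 13.6% for TATAAA, 7.15% for CACGTG, 1.79% for TGACGTCA and 4.6% for the NRF1 motif, and none of the 4 printed promoters held one of these. The share of G and C was 82.0% in the printed Pitpnm2, 71.0% in the Rilpl1, 63.0% in the Mphosph9 and 63.7% in the Ddx55 promoter, against a median of 52.7% over all promoters.

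Tmed2 (ENSMUSG00000029390) was the most abundant of the 8 genes and showed the largest difference in FPKM. It was at 113, 127 and 89.6 FPKM in NMN replicates 1 to 3, at 126, 78.8 and 133 FPKM in aged replicates 1 to 3, and at 8.95, 11.3 and 12.5 FPKM in young replicates 1 to 3. Every NMN and aged library lay far above every young one, and the NMN and aged values were interleaved. The means were 109.6 ± 18.7 FPKM in NMN, 113 ± 29.5 in aged and 10.9 ± 1.83 in young libraries (SD, n = 3 each). The aged mean was 10.3 times and the NMN mean 10.02 times the young mean. In the order of group means over the 9168 tested genes, Tmed2 stood at percentile 95.5 in NMN and 95.6 in aged oocytes, and at percentile 66.9 in young oocytes.

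Ddx55 (ENSMUSG00000029389), the next gene after Tmed2, followed it at a lower level. It was at 6.99, 8.54 and 5.81 FPKM in NMN, 7.33, 6.51 and 7.72 FPKM in aged and 1.76, 1.76 and 1.5 FPKM in young replicates 1 to 3. The NMN and aged libraries overlapped, and all 6 lay above the young libraries. The aged mean of 7.19 ± 0.62 FPKM was 4.30 times the young mean of 1.67 ± 0.15 FPKM, and the NMN mean of 7.11 ± 1.37 FPKM was 4.25 times it (SD, n = 3 each).

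Scarb1 (ENSMUSG00000037936), at the far end of the stretch, also had its lowest level in young oocytes. It was at 8.76, 10.4 and 6.50 FPKM in NMN, 8.62, 5.42 and 9.68 FPKM in aged and 1.81, 2.11 and 2.08 FPKM in young replicates 1 to 3. Again the NMN and aged libraries overlapped and stood clear of the young ones. The aged mean was 7.91 ± 2.22 FPKM against 2.0 ± 0.16 in young libraries, 3.95 times as high, and the NMN mean of 8.56 ± 1.97 FPKM was 4.28 times the young mean.

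Mphosph9 (ENSMUSG00000038126) separated the aged from the young group widely and split the NMN group. It was at 13.8, 14.3 and 5.87 FPKM in NMN, 15.3, 14.2 and 16.6 FPKM in aged and 4.09, 4.25 and 4.63 FPKM in young replicates 1 to 3. NMN replicates 1 and 2 lay at the aged level, whereas NMN replicate 3 lay just above the young libraries. The aged mean was 15.4 ± 1.16 FPKM against 4.32 ± 0.28 in young libraries, 3.55 times as high. The NMN mean of 11.3 ± 4.73 FPKM was 2.62 times the young mean.

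Dnah10 (ENSMUSG00000038011) was the lowest of the 5 genes whose level was higher in aged oocytes, and its aged libraries were widely spread. It was at 3.30, 2.89 and 1.93 FPKM in NMN, 2.5, 5.48 and 4.38 FPKM in aged and 1.38, 1.05 and 1.07 FPKM in young replicates 1 to 3. The highest value came from aged replicate 2, and NMN replicate 3 was the NMN library nearest to the young ones. The aged mean was 4.12 ± 1.51 FPKM against 1.17 ± 0.18 in young libraries, 3.54 times as high, and the NMN mean of 2.71 ± 0.70 FPKM was 2.32 times the young mean.

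**Figure D1:**
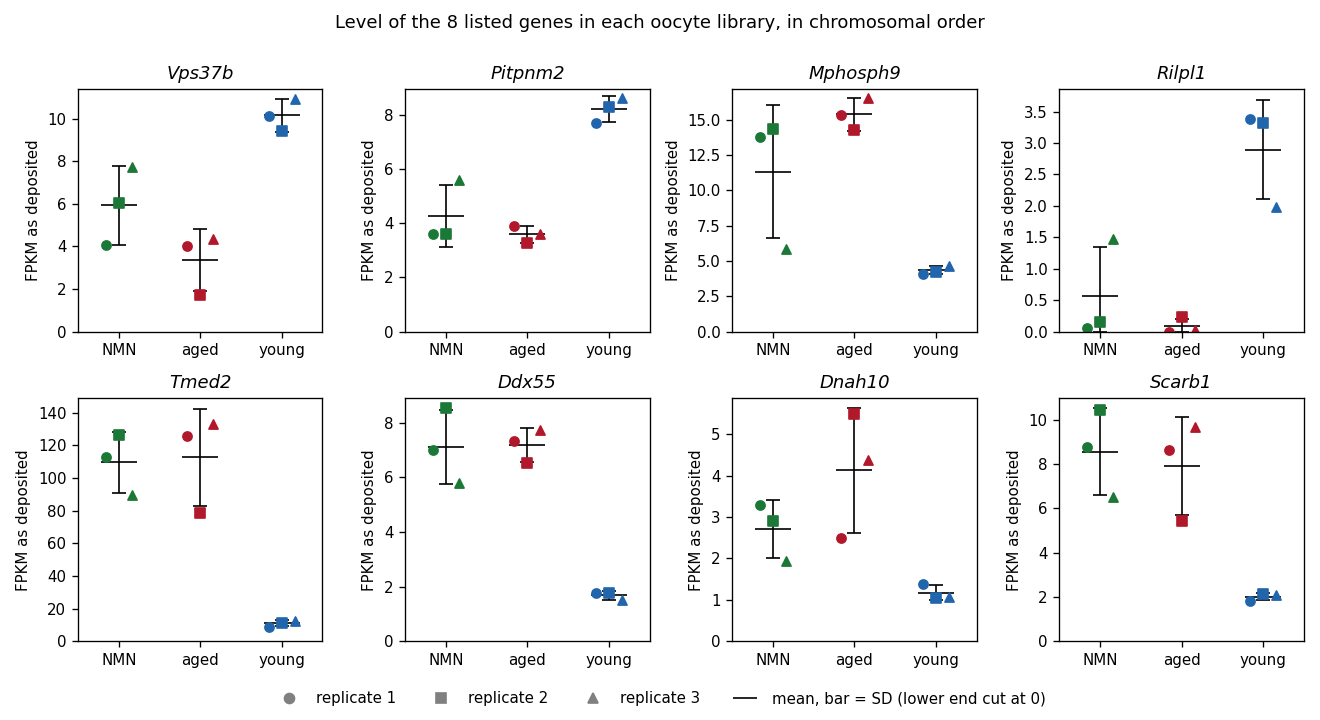
Level of each of the 8 genes in FPKM as deposited (linear axes from 0), with 1 point per library, the group mean and its SD (n = 3 each), in chromosomal order. For Tmed2, Ddx55, Mphosph9, Dnah10 and Scarb1 all NMN and aged points lie above the young points, and for Vps37b, Pitpnm2 and Rilpl1 all lie below them.

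The other 3 genes had their highest level in young oocytes. Rilpl1 (ENSMUSG00000029392), the next gene before Tmed2, on the opposite strand, was at 0.0483, 0.152 and 1.47 FPKM in NMN and at 3.38, 3.31 and 1.98 FPKM in young replicates 1 to 3. In the aged group it was listed at 0 in replicate 1, at 0.224 FPKM in replicate 2 and at 0.0244 FPKM in replicate 3. Aged replicates 1 and 3 and NMN replicate 1 were at or below the 0.0771 to 0.0801 FPKM that 3 fragments of its longest annotated transcript would give, a floor that covers counting error only. No fold is given for it, because its aged level rests on so few fragments.

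Pitpnm2 (ENSMUSG00000029406) was at 3.61, 3.60 and 5.58 FPKM in NMN, 3.89, 3.28 and 3.59 FPKM in aged and 7.67, 8.29 and 8.62 FPKM in young replicates 1 to 3. NMN replicates 1 and 2 lay within the aged range, and NMN replicate 3 lay between the aged and the young libraries. The aged mean of 3.59 ± 0.31 FPKM was 0.438 times the young mean of 8.19 ± 0.48 FPKM, and the NMN mean of 4.26 ± 1.14 FPKM was 0.520 times it.

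Vps37b (ENSMUSG00000066278) was at 4.05, 6.02 and 7.74 FPKM in NMN, 4.01, 1.72 and 4.37 FPKM in aged and 10.1, 9.42 and 10.9 FPKM in young replicates 1 to 3. Here NMN replicates 2 and 3 lay between the aged and the young libraries. The aged mean of 3.37 ± 1.44 FPKM was 0.332 times the young mean of 10.2 ± 0.77 FPKM, and the NMN mean of 5.94 ± 1.85 FPKM was 0.584 times it. Vps37b overlaps the end of Hip1r on the other strand, and no use of strand is stated for the counting, so their reads cannot be told apart there. Hip1r itself was at 3.04 ± 0.56 FPKM in NMN, 2.81 ± 1.23 in aged and 2.10 ± 0.65 in young libraries. Annotated genes absent from the deposited table overlap Pitpnm2, Mphosph9, Rilpl1 and Dnah10 on the other strand and Scarb1 on the same strand. Reads could not be told apart there either. Tmed2 and Ddx55 overlap no annotated gene.

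Across all genes, 196 of 9168 (2.14%) passed the test in aged against young oocytes (limma, Benjamini-Hochberg adjusted p under 0.05), 117 higher (1.28%) and 79 lower (0.862%). All 8 genes were among them, 5 higher and 3 lower, which repeats how they were picked. On the scale of log2(FPKM + 1), which understates the change of low genes, the aged minus young differences were 3.18 for Tmed2, 1.58 for Ddx55 and for Mphosph9, 1.51 for Scarb1 and 1.17 for Dnah10. They were -1.04 for Pitpnm2, -1.45 for Vps37b and -1.86 for Rilpl1. Pitpnm2 had the smallest difference among the listed genes. Of the unlisted genes, Arl6ip4 had a larger one, 1.21, and was not called because of its spread. The groups did not overlap for any of the 8 genes, nor for 23.8% of all tested genes (12.6% higher and 11.2% lower). Without a young library or aged replicate 3, or with no filter on low values, only Tmed2 and Ddx55 of the 8 were called.

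Without aged replicate 2, the library with cumulus and granulosa markers, the differences were 3.47 for Tmed2, 1.69 for Ddx55, 1.68 for Mphosph9, 1.77 for Scarb1 and 1.02 for Dnah10. They were -0.95 for Pitpnm2, -1.10 for Vps37b and -1.95 for Rilpl1. All 8 directions were thus the same with and without that library. Of the aged libraries, replicate 2 had the lowest level of Tmed2, Ddx55, Mphosph9, Scarb1, Pitpnm2 and Vps37b and the highest of Dnah10 and Rilpl1.

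In NMN against aged oocytes 20 genes (0.218%) passed the test, 11 higher (0.12%) and 9 lower (0.0982%), and none of the 8 was among them, again as their choice implies. The NMN minus aged differences were -0.03 for Tmed2 and for Ddx55, 0.10 for Scarb1 and 0.17 for Pitpnm2. They were -0.44 for Dnah10, -0.51 for Mphosph9, 0.42 for Rilpl1 and 0.68 for Vps37b. The groups overlapped for all 8 genes, as they did for all but 15.6% of tested genes (9.09% higher and 6.51% lower). Of these differences, 4 pointed from the aged toward the young level by over 0.4 (Dnah10, Mphosph9, Rilpl1 and Vps37b). For Mphosph9 and Rilpl1 this rested largely on NMN replicate 3, at 5.87 and 1.47 FPKM. NMN replicates 1 and 2 lay near the aged level for both genes. For Vps37b the lowest aged library was replicate 2, at 1.72 FPKM, the library with cumulus and granulosa markers. The choice of the genes used these groups, so the differences are a description.

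In NMN against young oocytes 7 genes (0.0764%) passed the test, 6 higher (0.0654%) and 1 lower (0.0109%). Tmed2 and Ddx55 were among the higher ones, in a comparison that the choice of the genes also used, so nothing is read from these calls. Only Tmed2 of the 8 was called without NMN replicate 1 or 2, aged replicate 1 or 3 or any 1 young library, and Mphosph9 and Rilpl1 joined Tmed2 and Ddx55 without NMN replicate 3. With the replicate number as a block, 0 of 9168 genes passed (limma; the count without the block at an unadjusted p under 0.05 was 753). The NMN minus young differences were 3.15 for Tmed2, 1.61 for Scarb1, 1.55 for Ddx55, 1.07 for Mphosph9 and 0.73 for Dnah10. They were -0.77 for Vps37b, -0.88 for Pitpnm2 and -1.45 for Rilpl1. Again no gene of the 8 overlapped between these groups, nor did 16.6% of all tested genes (9.58% higher and 6.99% lower). The comparisons with young oocytes share the young libraries, so they are not independent of each other.

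Among the NMN libraries, replicate 3 was the nearest to the young level for each of the 8 genes. Each NMN library was placed on a line on which the mean of the young libraries is 0% and that of the aged libraries 100%. NMN replicate 3 lay at a median of 53.6% over the 8 genes, against 98.0% for NMN replicate 1 and 98.7% for NMN replicate 2. Over the other 188 genes called in aged against young oocytes, the medians were 44.0%, 26.1% and 29.5% for NMN replicates 1 to 3. Replicate 3 had the lowest position for 39.4% of them. A position below 0% lies beyond the young mean, so the lowest library need not be the nearest to young there. The 8 genes are neighbours and not independent, and they were chosen for NMN values near the aged ones, so this is a description. Unlisted genes, whose values are given below, varied in this. NMN replicate 3 was also nearest to young for Eif2b1, Atp6v0a2, Arl6ip4 and Gm32585, but for Kmt5a NMN replicate 2 was.

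The position of NMN replicate 3 varied along the stretch. From Vps37b to Rilpl1 it was 35.7% for Vps37b, 56.7% for Pitpnm2, 14% for Mphosph9 and 50.5% for Rilpl1. It was then 77.3% for Tmed2 and 74.9% for Ddx55, 25.9% for Dnah10 and 76.2% for Scarb1. The genes where replicate 3 stayed nearest to the aged level were Tmed2, Ddx55 and Scarb1. In NMN replicates 1 and 2 the positions ranged between 58.4%, for Dnah10 in replicate 2, and 142.7%, for Scarb1 in replicate 2. Scaling the libraries moved a position by at most 6.80 percentage points. Without NMN replicate 3 the NMN minus young difference was 1.46 for Mphosph9, -1.83 for Rilpl1, -1.04 for Pitpnm2 and 3.30 for Tmed2.

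**Figure D2:**
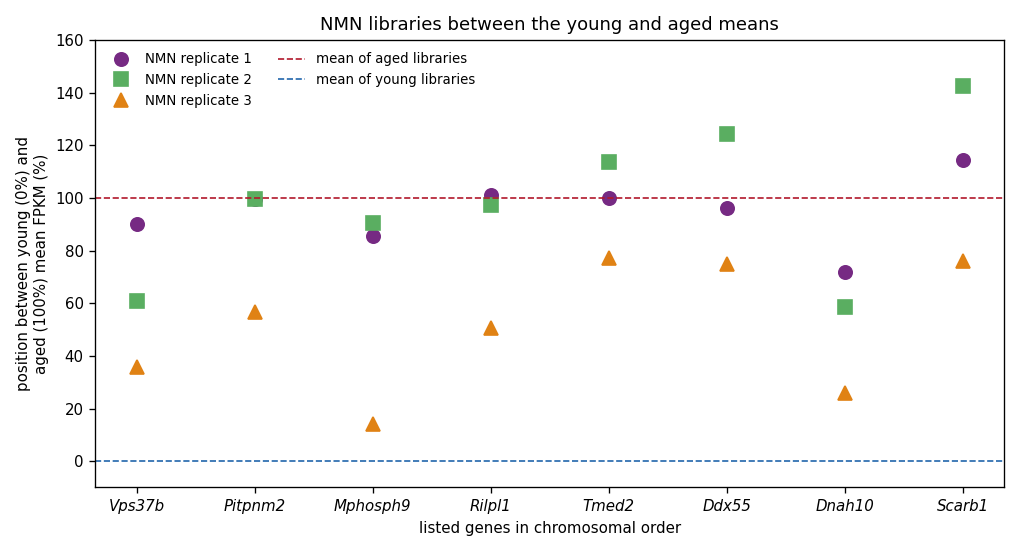
Position of each NMN library between the mean of the young libraries (0%) and the mean of the aged libraries (100%), in FPKM as deposited, for the 8 genes in chromosomal order. Triangles (replicate 3) lie below circles and squares (replicates 1 and 2) for all 8 genes, from 14% for Mphosph9 to 77.3% for Tmed2.

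Of the 20 unlisted genes of the stretch, 11 were tested and 0 passed the test in any comparison (limma; 2 had an unadjusted p under 0.05 in aged against young, and 0 in each comparison with NMN). Over all tested genes 2.14%, 0.218% and 0.0764% passed in the 3 comparisons, so a count of 0 among 11 is near the background. The median aged minus young difference over the 11 was -0.08, against -0.03 over all tested genes. Their lack of a call follows in part from the choice, which took the called genes out. Kmt5a, a histone methyltransferase gene between Mphosph9 and Rilpl1, was at 5.93, 4.78 and 5.21 FPKM in NMN, 6.04, 4.82 and 5.43 FPKM in aged and 4.27, 3.49 and 3.81 FPKM in young replicates 1 to 3. Its aged and young libraries did not overlap, and its difference was 0.37 ± 0.18 (SE, limma adjusted p = 0.316).

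Eif2b1, a subunit of the exchange factor of translation initiation, follows Ddx55 and was the most abundant gene of the stretch. It was at 240.3, 238 and 207 FPKM in NMN, 297, 166.5 and 276 FPKM in aged and 150.1, 172 and 151 FPKM in young replicates 1 to 3. Aged replicate 2 lay within the young range, and the other aged libraries lay above it. The aged minus young difference was 0.55 ± 0.25 (SE, limma adjusted p = 0.282), and without aged replicate 2 the gene was called (adjusted p = 0.028). Atp6v0a2, a subunit of the proton pump of endosomes and Golgi, was at 13.6, 13.0 and 16.5 FPKM in NMN, 12.5, 8.63 and 13.0 FPKM in aged and 17.5, 18.4 and 17.4 FPKM in young replicates 1 to 3. All aged libraries lay below all young ones, and NMN replicate 3 was the NMN library nearest to young. The difference of Atp6v0a2 was -0.66 ± 0.21 (SE, limma adjusted p = 0.141). Arl6ip4 was at 2.47, 1.78 and 0.755 FPKM in NMN, 2.04, 4.98 and 1.25 FPKM in aged and 0.995, 0.239 and 0.288 FPKM in young replicates 1 to 3 (difference 1.21 ± 0.36, limma adjusted p = 0.124). Aged replicate 2 was the highest library of Arl6ip4, and the other aged libraries also lay above the young ones.

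Of the other tested genes of the stretch, Abcb9 and Gtf2h3 had similar means in the 3 groups. Abcb9, a lysosomal peptide transporter, averaged 7.26 ± 0.93 FPKM in NMN, 6.83 ± 1.85 in aged and 7.17 ± 1.19 in young libraries (SD, n = 3 each). Gtf2h3, a subunit of the transcription and repair factor TFIIH, averaged 5.78 ± 0.39, 5.50 ± 1.37 and 5.65 ± 0.95 FPKM in NMN, aged and young libraries. Their aged minus young differences were smaller than the SE of 0.25 and 0.23. Ccdc92, Zfp664, Sbno1 and Tctn2 had aged minus young differences of -0.20, 0.26, -0.17 and -0.07 (limma adjusted p from 0.653 to 0.904). Their NMN minus young differences were -0.42, 0.42, 0.10 and -0.13 (limma adjusted p from 0.742 to 0.893). The libraries of Ccdc92 and Zfp664 were widely spread within the groups. The 9 untested genes, among them Rilpl2, Snrnp35, Cdk2ap1 and Ogfod2, stayed below the minimum of 1 FPKM in 3 libraries. Rilpl2, the paralogue of Rilpl1 in the same stretch, was at 0.0152, 0.0273 and 0 FPKM in NMN and at 0.103, 0.172 and 0.0612 FPKM in aged replicates 1 to 3, and was listed at 0 in all young libraries. Gm32585, a predicted gene directly before Scarb1 that was singled out after its values were seen, was at 1.09, 0.70 and 0.317 FPKM in NMN, 1.21, 0.563 and 0.157 FPKM in aged and 0, 0.0753 and 0.0680 FPKM in young replicates 1 to 3. Its NMN and aged libraries lay above all young ones.

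**Figure D3:**
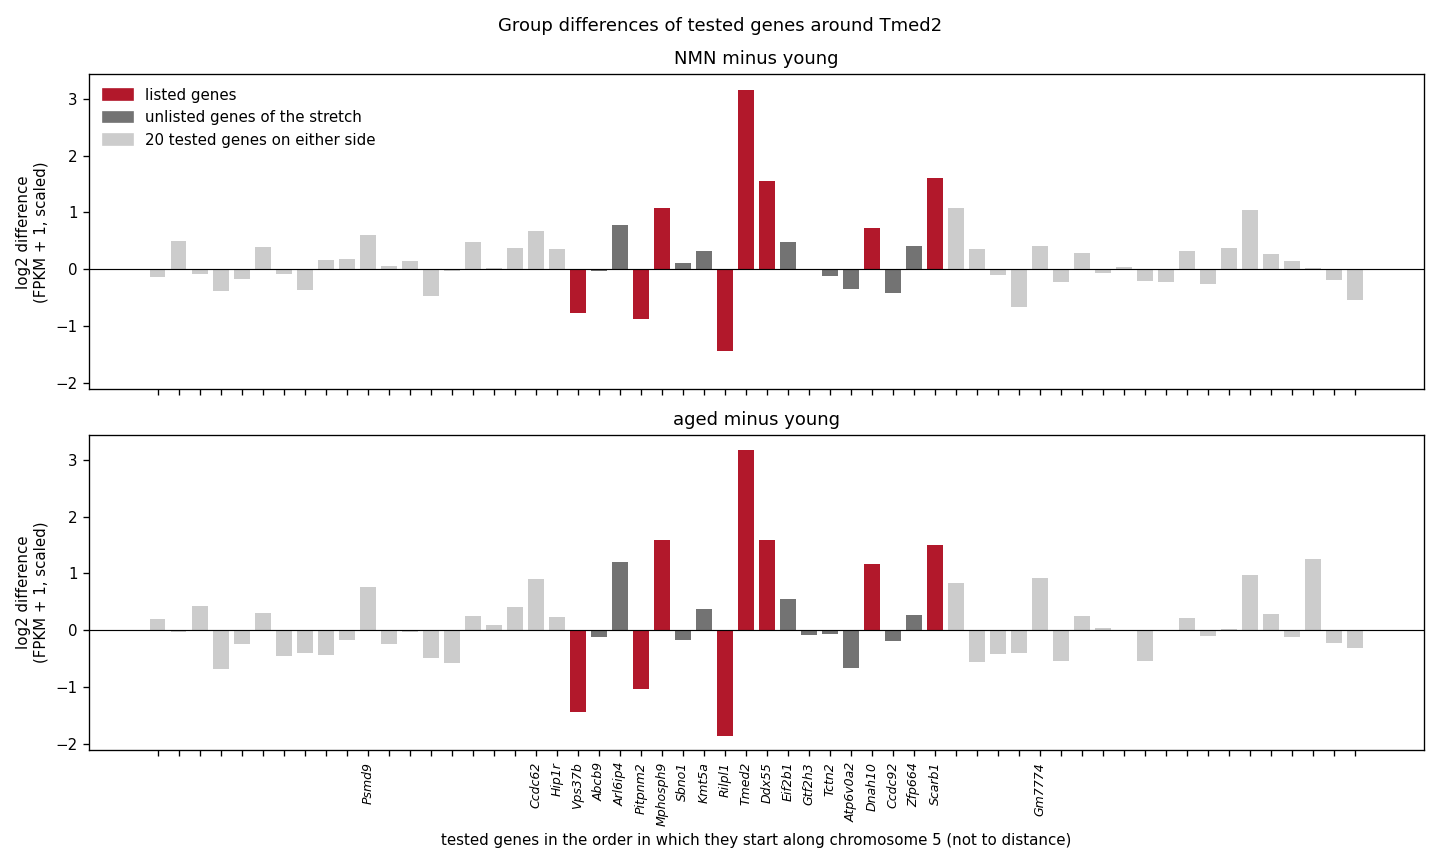
Difference of group means on the scale of log2(FPKM + 1), NMN minus young above and aged minus young below, for the tested genes of the stretch but 1 and 20 tested genes on either side, in chromosomal order and not to distance. Red bars mark the 8 listed genes, from -1.86 for Rilpl1 to 3.18 for Tmed2 in aged minus young, and the unlisted genes shown between them stay within -0.66 and 1.21.

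Beyond the stretch, 0 of the 20 tested genes before Vps37b and 1 of the 20 after Scarb1 passed the test in aged against young oocytes (limma). The 1 was Gm7774, a predicted gene that rose to 17.5 ± 4.71 FPKM in aged oocytes, against 8.28 ± 0.81 FPKM in young oocytes (difference 0.93 ± 0.19 SE, adjusted p = 0.038). Of these flanking genes, 6 before and 4 after the stretch had an unadjusted p under 0.05 in that comparison, as did 18.3% of all tested genes. No gene of either flank passed in the comparisons with NMN (limma; unadjusted p under 0.05 for 3 and 3 in NMN against aged and for 2 and 2 in NMN against young). On the rest of chromosome 5, flanks included, 10 of 599 tested genes were called in aged against young, 2 higher and 8 lower. Over all tested genes 2.14% were called in that comparison, 1.28% higher and 0.862% lower. The shares called were 0.218% in NMN against aged and 0.0764% in NMN against young.

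Ccdc62, a coiled-coil gene that lies 2 tested genes before Vps37b and was singled out after its values were seen, had the split of Mphosph9. It was at 2.07, 2.02 and 0.782 FPKM in NMN, 1.89, 2.10 and 2.0 FPKM in aged and 0.570, 0.588 and 0.568 FPKM in young replicates 1 to 3. NMN replicates 1 and 2 lay at the aged level, at 105.4% and 101.9% of the way from young, and replicate 3 at 14.6%. The aged minus young difference was 0.90 ± 0.23 (SE, limma adjusted p = 0.075), and without NMN replicate 3 it was called (adjusted p = 0.041). Psmd9, a proteasome assembly chaperone 10 tested genes before Vps37b, was at 85.3, 87.0 and 61.5 FPKM in NMN, 82.3, 89.3 and 85.0 FPKM in aged and 49.2, 45.8 and 49.7 FPKM in young replicates 1 to 3. Its groups had the same order, and NMN replicate 3 again lay between them (difference 0.77 ± 0.18, limma adjusted p = 0.061, and 0.043 with values as deposited).

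Genes that work with the 8 were given in lists that hold none of them. Of 142 such genes 93 were tested, and 0 passed in any of the 3 comparisons (limma; unadjusted p under 0.05 for 15 in aged against young, 11 in NMN against aged and 3 in NMN against young). Of all tested genes, 18.3%, 11.2% and 8.21% had such a p in these comparisons. The shares that passed were 2.14%, 0.218% and 0.0764%, so a count of 0 among 93 is near the background. Their median difference was -0.04 in aged minus young, 0.05 in NMN minus aged and 0.04 in NMN minus young, against -0.03, 0.01 and -0.00 over all tested genes. The largest list, the p24 proteins with the COPI and COPII coats, had 28 of 36 members tested and a median of -0.02 in aged minus young. Tmed10, the p24 partner of TMED2 in vesicle loading, averaged 12.8 ± 3.71 FPKM in NMN, 16.8 ± 2.65 in aged and 10.3 ± 1.65 in young libraries (aged minus young 0.61 ± 0.21 SE, limma adjusted p = 0.169). Tmed9 averaged 41.5 ± 1.54, 31.7 ± 8.14 and 36.6 ± 3.17 FPKM in NMN, aged and young libraries (limma adjusted p = 0.462 in aged against young). Tmed4 had the smallest p of the list, with 5.88 ± 0.86, 6.34 ± 3.20 and 2.38 ± 0.50 FPKM in NMN, aged and young libraries (aged minus young 1.0 ± 0.27, limma adjusted p = 0.088). Tmed4 and Tmed3 were called without aged replicate 1 (adjusted p = 0.049 each).

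The ESCRT list had 20 of 28 members tested and a median of 0.03 in aged minus young. The other VPS37 subunits Vps37a and Vps37c averaged 5.39 ± 0.56 and 2.98 ± 1.26 FPKM in NMN, 5.70 ± 1.13 and 2.43 ± 0.46 in aged and 5.95 ± 1.20 and 2.67 ± 0.67 in young libraries. Neither gene passed the test in any comparison. The ESCRT-I core gene Tsg101 averaged 49.6 ± 3.10 FPKM in NMN, 55.3 ± 4.15 in aged and 46.4 ± 5.22 in young libraries (aged minus young 0.20 ± 0.18 SE, limma adjusted p = 0.59). Chmp1a, a subunit of ESCRT-III with the smallest p of the list, averaged 7.53 ± 1.30 FPKM in NMN, 3.20 ± 1.29 in aged and 7.84 ± 0.998 in young libraries (aged minus young -1.15 ± 0.28 SE, limma adjusted p = 0.066). For Chmp1a the NMN mean lay near the young one, unlike that of Vps37b.

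Of the lipoprotein and cholesterol list 9 of 14 genes were tested, with medians of 0.37 in aged minus young and -0.40 in NMN minus aged. Npc2, which exports cholesterol from lysosomes, averaged 16.9 ± 1.86 FPKM in NMN, 26.9 ± 11.5 in aged and 15.4 ± 3.34 in young libraries (limma adjusted p = 0.191 in aged against young). Scarb2, the closest relative of Scarb1 in the list, stayed below the filter.

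The DEAD-box helicases of ribosome assembly, with 12 of 14 tested, had a median of -0.07 in aged minus young. Ddx56, with the smallest p, averaged 3.96 ± 0.15 FPKM in NMN, 7.70 ± 3.26 in aged and 3.99 ± 0.51 in young libraries (limma adjusted p = 0.147). The axonemal dynein chains had 6 of 18 tested and a median of -0.20, and Dnah8 averaged 5.77 ± 0.22, 3.73 ± 1.80 and 3.90 ± 0.80 FPKM in NMN, aged and young libraries. The phosphatidylinositol list had 6 of 14 tested and a median of -0.22, the list of the RILP family and its Rab partners 6 of 11 and -0.32, and the centriole cap list 6 of 7 and -0.05. Pitpna averaged 1.88 ± 0.73, 1.53 ± 0.56 and 2.22 ± 0.73 FPKM, Rab10 51.1 ± 9.11, 38.1 ± 15.7 and 41.2 ± 17.1 FPKM and Ccp110 15.6 ± 1.44, 12.8 ± 2.30 and 17.8 ± 2.19 FPKM in NMN, aged and young libraries. None of these lists held a called gene in any comparison, near the 2.14%, 0.218% and 0.0764% called over all tested genes.

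The genes most like Tmed2 in level over the 9 libraries, by Pearson's r on the log2 scale, included some of its own neighbours. The r was 0.989 for Ddx55 and 0.982 for Scarb1, but 0.892 for Mphosph9 and 0.799 for Dnah10. It was -0.691 for Vps37b, -0.902 for Pitpnm2 and -0.926 for Rilpl1. Outside the stretch it was highest for Swt1 (0.954), Fbxw14 (0.951), Tubb3 (0.936), Psmd9 (0.924) and Hormad1 (0.910), among named genes that averaged 10 FPKM or more in 1 of the groups. These values describe how the libraries sort, since they all rest on the gap between the young and the other libraries. In size of change these genes stood well below Tmed2. Swt1 averaged 11.9 ± 0.89 FPKM in NMN, 12.1 ± 1.06 in aged and 7.53 ± 0.67 in young libraries. Tubb3, a beta tubulin, averaged 105.7 ± 18.0 FPKM in NMN, 104.9 ± 5.33 in aged and 65.0 ± 1.55 in young libraries. Hormad1, on chromosome 3, had a wider gap relative to its young level than these. It averaged 45.1 ± 15.6 FPKM in NMN, 41.6 ± 8.08 in aged and 14.9 ± 3.6 in young libraries.

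A chromosomal segment shared between mice of 1 group is a possible source of differences at neighbouring genes in an outbred strain. The deposited table holds no genotypes, and the labels do not name the mice, so the group and any such segment cannot be told apart, and this was not tested.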

How the data were processed

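Messenger RNA of metaphase II oocytes was measured in 9 libraries, 3 each of the NMN, aged and young groups, made by Smart-seq2 per the labels' protocols. The authors deposited FPKM for 22526 genes in a table whose name speaks of raw counts. The values are fractional, and 96.6 to 97.8% of those below 20 fragments, for genes with 1 annotated transcript over 1500 nt, fell within 0.02 of whole fragments, which gave the depths. Per the submitters' processing notes, Bowtie2 2.2.5, RSEM and build mm9 were used, with no roles stated. The annotation and filters are not given in the sources used here. Symbols and gene order came from GENCODE M21 (99.83% of identifiers matched), which is on a later build, so no gene coordinates are given. Promoters carry those of their own RefSeq table.

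Each library was scaled by a trimmed mean of its ratios to a common library, leaving out 30% of genes at each end of ratio and 5% at each end of level. The 9168 genes that reached 1 FPKM in 3 or more libraries were fitted together as group means on log2(FPKM + 1) in limma 3.58.1 under R 4.3.3, with variance trend and robust moderation, Benjamini-Hochberg adjustment over all tested genes and a threshold of 0.05. The steps were tested on simulated data. Levels are FPKM as deposited, and medians, ratios and positions were computed from them or from the scaled values as stated. No libraries held identical values. The 8 genes and all lists were chosen with earlier results of these data known. Named are the 8 genes, unlisted genes of the stretch, called flank genes, relatives or partners from the lists, the 5 genes most like Tmed2, and, chosen after their values were seen, those with the smallest p. The relatives named were not always the nearest. Libraries with the same replicate number deviated together for NMN and young (correlations 0.497, 0.119 and 0.143), which the labels do not explain, but not for the other comparisons. A gene of the stretch and a gene of the lists are not reported here.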

Additional observations from a re-analysis of the deposited data

How the results depend on the processing

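The directions of the 8 listed genes in aged against young and in NMN against young were the same under every alternative run, 112 values in each comparison, and 103 of 111 were the same in NMN against aged, where differences near 0 changed sign. A pseudocount of 0.1 FPKM enlarged the low genes, with Rilpl1 at -4.26 in aged minus young. Calls depended on the setting far more than directions did, and the cause was not tested beyond the smaller number of samples or the larger number of genes tested. For aged against young, 196 genes were called, 28 with no low-value filter, 127 with the 2 compared groups only, 74 with the replicate block and from 29 to 215 without 1 library (33 without aged replicate 3, 42, 32 and 29 without young replicates 1 to 3, and 110 without NMN replicate 3). Of the 8 listed genes, 8 were called, 2 with no low-value filter, 2 with the replicate block and from 2 to 8 without 1 library, a count added after seeing the data. For NMN against aged, the 20 calls became 9 with no low-value filter, 6 with the 2 compared groups only and from 5 to 26 without 1 library (11 without NMN replicate 1, and 8 and 5 without aged replicates 1 and 3). For NMN against young, the 7 calls became 1 with no low-value filter, 3 with values as deposited, 17 with the 2 compared groups only, 0 with the replicate block and from 1 to 14 without 1 library (1 without NMN replicate 1, aged replicate 1 or any young library, 3 without aged replicate 3, 14 without aged replicate 2, and 12 without NMN replicate 3). Of the listed genes, 2 were called there, 1 with no low-value filter, 0 with the replicate block, 3 with the 2 compared groups only and from 1 to 4 without 1 library. The unlisted neighbours called in aged against young numbered 0, and from 0 to 1 without 1 library (Eif2b1, without aged replicate 2), and the pathway genes 0, and from 0 to 2 without 1 library. The replicate block changed no other count of listed, unlisted or pathway genes. For aged against young and NMN against aged, replicates 1 and 2 did not deviate together (correlations from -0.372 to -0.267). Replicate 3 did in both (0.314 and 0.201). Depth limits Rilpl1, whose aged values lie near the floor of 3 fragments.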
